A study of Mus musculus with 9 samples.

Results

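Interferon-stimulated genes were followed as a list of 52 genes whose transcription is known to be switched on by interferons. For each gene the probe set used was the one that the array's annotation pairs with that gene alone and that had the highest mean over the 9 arrays, a rule that does not look at the groups. This gave a probe set for 50 of the 52 genes, out of 18193 genes with such a probe set in the whole series. Isg15 and Ifi44 were not analysed here, as neither has a probe set to itself in the annotation. Of the 50 genes, 47 passed the filter on low values that was set for the tests (a signal above the array's own median on at least 3 of the 9 arrays), as did 11006 genes in all. The other 3 members, Gbp2, Gbp3 and Ifi47, are given as values only.

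The RNA came from stomach cells of C57BL/6 mice in 3 groups of 3 samples. The isthmus samples were Mist1+Tomato+ corpus cells taken after Lgr5+ cells had been ablated, the parietal samples were acid-secreting gastric parietal cells, and the chief samples were Mist1+Tomato+ corpus cells with no ablation named. Bhlha15 encodes Mist1, which drives the secretory programme of zymogenic cells, Tomato is a red fluorescent reporter, and Lgr5, a co-receptor in Wnt signalling, marks stem cells in several epithelia. The Mist1+ cells were sorted by flow cytometry; the sources used here do not name the driver of the reporter, the means of ablation, any age or how parietal cells were collected. Nothing in the labels ties samples to separate animals, and p-values therefore reflect only how far these samples spread, which may be a technical spread.

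Interferons bind receptors on the cell surface, and the receptors' Janus kinases phosphorylate STAT proteins. Type I and type III interferons act mainly through a complex with Irf9 and Stat2 that binds the interferon-stimulated response element in promoters, whereas type II interferon acts mainly through the gamma-activated sequence. The genes so induced encode proteins that sense or degrade viral RNA, block translation and viral entry, attach the ubiquitin-like Isg15 to other proteins, and cut and load peptides onto MHC class I. Many are also transcribed at a lower level without infection, in epithelia too.

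The elements through which interferons act are written in the promoters themselves, so the promoters of 7 members are shown first. RefSeq promoters of build GRCm38.p6, running from 250 bases before to 50 after each transcription start, were at hand for 41 of the 52 members. The core of the response element was searched on both strands as TTTC, any 2 bases and TTTC again, and was found in the promoters of 16 of these 41 members (39.0%) and of 1079 of all 27025 genes with a promoter (3.99%), or in 3.44% of all 32851 promoters, several genes having more than 1. The core of the gamma-activated sequence, TTCNNNGAA, was found in 9 of the 41 members (22%), in 9.55% of all genes with a promoter and in 8.30% of all promoters. Both searches let motifs overlap each other. A match describes the letters and does not show that a factor binds there, and no match says only that the letters are not in this window.

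Shown 5′ to 3′ on the gene's strand, with the matched response element cores in capitals, are bases 150 to 1 before the start of 5 members with the response element. Oas1a also holds a gamma-activated core, TTCAAAGAA, at bases 98 to 90 before the start, which is left in lower case. Ifit1 (chr19:34640739-34640888, plus strand) and Oas1a (chr5:120907526-120907675, minus strand) are antiviral genes, Irgm1 (chr11:48871421-48871570, minus strand) and Trim30a (chr7:104465194-104465343, minus strand) are from other families, and B2m (chr2:122147537-122147686, plus strand) is the member that stood lower in every isthmus sample than in any chief sample.
Ifit1: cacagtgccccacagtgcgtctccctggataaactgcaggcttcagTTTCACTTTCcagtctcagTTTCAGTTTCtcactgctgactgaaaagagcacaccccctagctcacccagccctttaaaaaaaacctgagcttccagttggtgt
Oas1a: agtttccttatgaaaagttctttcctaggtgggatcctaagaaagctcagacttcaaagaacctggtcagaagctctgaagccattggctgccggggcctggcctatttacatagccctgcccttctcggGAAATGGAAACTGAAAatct
Irgm1: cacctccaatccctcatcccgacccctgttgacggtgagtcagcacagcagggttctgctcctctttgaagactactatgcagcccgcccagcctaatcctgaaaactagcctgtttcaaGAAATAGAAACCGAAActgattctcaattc
Trim30a: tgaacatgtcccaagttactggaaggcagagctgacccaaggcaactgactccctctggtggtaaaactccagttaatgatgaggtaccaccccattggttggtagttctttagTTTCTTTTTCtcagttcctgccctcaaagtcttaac
B2m: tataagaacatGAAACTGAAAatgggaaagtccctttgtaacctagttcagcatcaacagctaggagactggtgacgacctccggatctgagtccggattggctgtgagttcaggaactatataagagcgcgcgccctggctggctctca

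Ifit1, Oas1a and Irgm1 each held 2 response element cores in these 150 bases, Oas1a and Irgm1 as overlapping pairs. For Trim21, which rose in the isthmus samples, the overlapping pair lay just after the start, and 30 bases around it are shown (positions 7 to 36, chr7:102565447-102565476, minus strand). Irf1, the first interferon regulatory factor, is shown for its gamma-activated core (chr11:53769864-53770013, plus strand).
Trim21: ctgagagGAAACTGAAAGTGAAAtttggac
Irf1: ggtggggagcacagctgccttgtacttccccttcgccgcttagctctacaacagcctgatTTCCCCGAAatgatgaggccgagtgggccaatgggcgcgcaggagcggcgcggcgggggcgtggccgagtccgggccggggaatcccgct

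Of the members in the promoter table that were tested, the 13 with a response element core had a median isthmus minus chief difference of 1.98 on the log2 scale, and the 23 without had 1.31. The differences ranged from -0.45 to 3.58 with the core and from -0.04 to 4.07 without it. All isthmus samples stood above all chief samples for 7 of the 13 and 9 of the 23, and for 10.6% of all tested genes. B2m, with the core, had them all below, as had 10.5% of all tested genes. The 9 members with the gamma-activated core had a lower median, 1, than the 27 without it, 1.60, and 2 of the 9 and 14 of the 27 had isthmus samples above all chief samples. Their differences ranged from 0.15 to 1.98 with this core and from -0.45 to 4.07 without it. Whether either core plays a part in the differences was not tested.

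Across the 9 arrays these genes were brightest in the isthmus samples, dimmer in the chief samples and dimmest in the parietal samples. The isthmus group had the highest mean for 47 of the 50 members, the parietal group for 1 (Psmb8) and the chief group for 2 (B2m and Lgals3bp). The parietal group had the lowest mean for 44 members, the chief group for 6 and the isthmus group for none. The signal lay above the array median on all 3 isthmus arrays for 42 members, on all 3 parietal arrays for 22 and on all 3 chief arrays for 28. No member was below the median on all 3 isthmus arrays, against 15 on all parietal and 7 on all chief arrays. Within the isthmus group the samples were not alike: isthmus replicate 2 held the highest value of all 9 arrays for 33 members, isthmus replicate 1 for 9 and isthmus replicate 3 for 5.

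**Figure D1:**
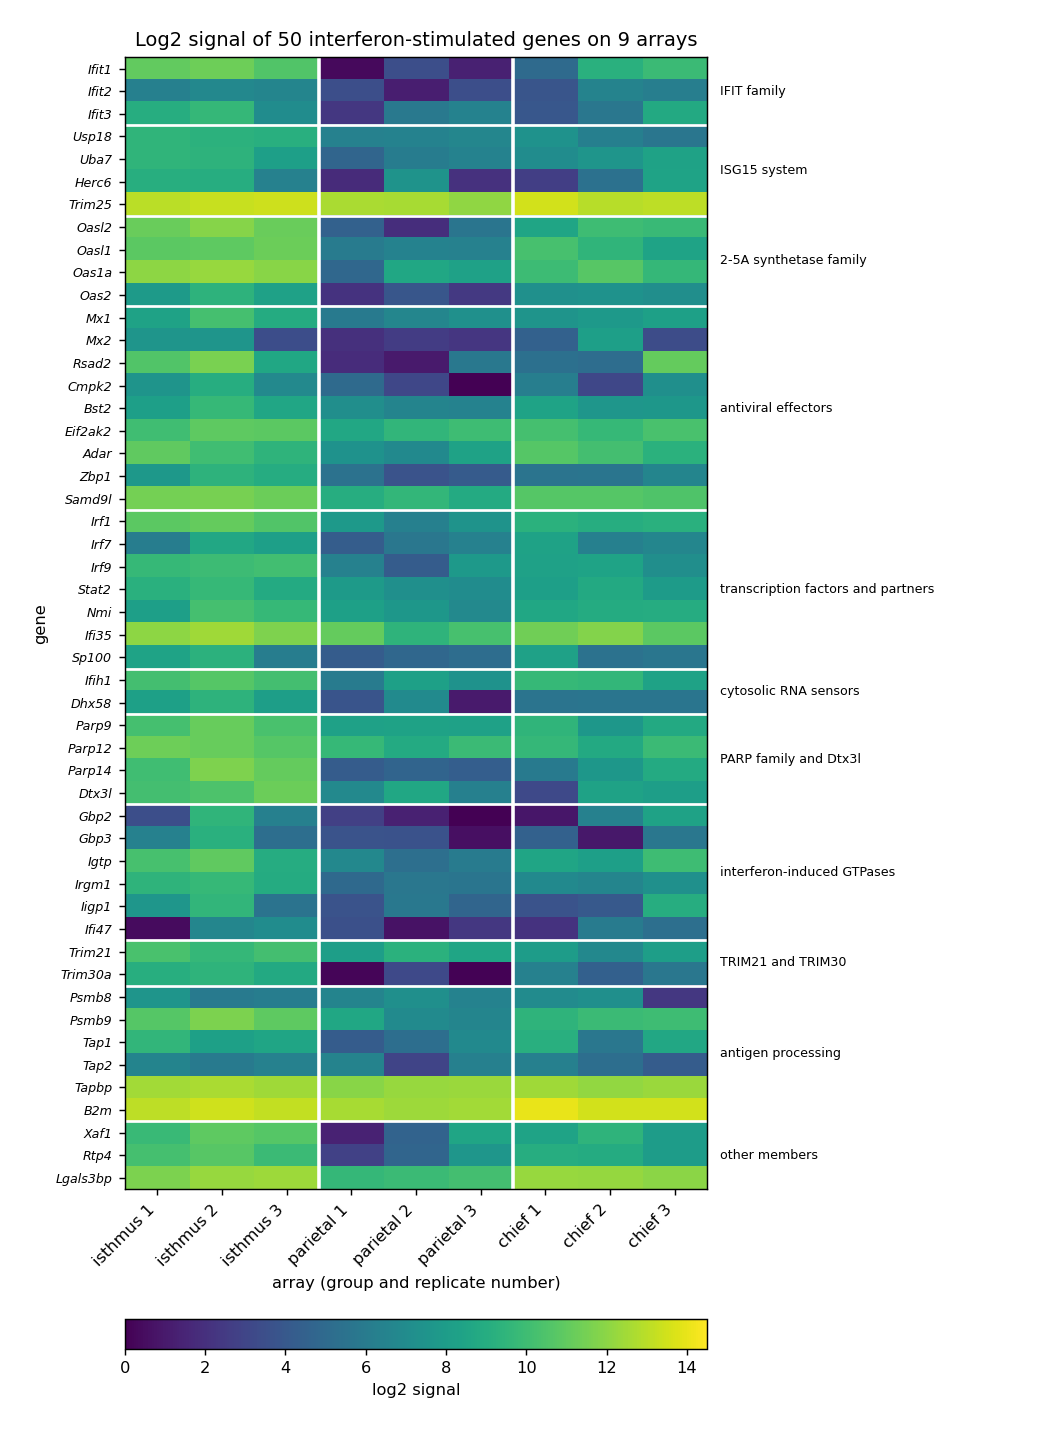
Log2 signal of the 50 members with a probe set (rows, in 11 role groups) on the 9 arrays (columns; isthmus, parietal and chief samples, 3 each), coloured from 0 to the brightest value. The isthmus columns are the lightest for most rows and the parietal columns the darkest, while Trim25, Tapbp and B2m are light in every column. Shades compare arrays within a row; probe sets of different genes have different sensitivities.

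The arrays were scaled alike by the authors' processing. The median log2 signal of an array was 5.92 to 6.32 in the isthmus, 5.80 to 5.86 in the parietal and 6.38 to 6.70 in the chief samples. Where the array median serves as a bar or a floor for values, it was therefore highest for the chief samples. Summed signals of chief cell markers were 30648 to 39756 in isthmus, 18473 to 28141 in parietal and 88646 to 127245 in chief samples, and those of parietal cell markers were 33683 to 49995, 92980 to 106609 and 41413 to 53767 in the same groups. Lgr5 was 2.93, 4.83 and 5.97 in isthmus against 8.05, 7.54 and 9.36 in chief samples (limma adjusted p = 0.0917), and Bhlha15 was 5.03, 1.34 and 7.36 in isthmus against 10.75, 10.05 and 9.20 in chief samples (adjusted p = 0.123). Chief replicate 3 stood apart: its fibroblast markers summed to 25819, against 81.8 to 414 on the other 8 arrays, and its erythroid markers to 24401, against 2570 to 4154. It also had both Xist (11.72) and the Y-linked Eif2s3y (10.63). Parietal replicate 1 had Xist at 13.13 and Eif2s3y at 2.84, whereas the other 7 arrays had Xist at 4.46 to 5.93 and Eif2s3y above 11. The counts below were therefore also taken without these arrays. The RNA is that of bulk samples, in which fewer cells of a type and less RNA per cell cannot be told apart.

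Because immune cells carry these transcripts too, 24 leukocyte genes were read on the same arrays. Of them, 0 to 2 lay above the array median on an isthmus array, 1 to 3 on a parietal array and 0 to 4 on a chief array. Their summed linear signal was 338 to 495 in the isthmus, 442 to 779 in the parietal and 309 to 1859 in the chief samples, the last value again in chief replicate 3. Ptprc, which encodes the pan-leukocyte protein CD45, was 8.80 in chief replicate 3 and at most 4.47 on the other 8 arrays. Markers of dividing cells summed to 14277 to 20864 in the isthmus, 2909 to 3699 in the parietal and 10187 to 15994 in the chief samples. The parietal samples were lowest, as for the interferon-stimulated genes, but isthmus and chief samples overlapped. Isthmus replicate 2, with the highest summed signal of the members (98959), had the lowest sum of these markers in its group (14277). The part of dividing cells in the results was not tested.

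Isthmus samples were first set against chief samples, which asks how sorted Mist1+ cells differed after the ablation. Nearly every member was higher in the isthmus samples, but only 3 passed the test: Usp18, Parp14 and Trim21 rose, and none fell. Over all genes tested, 0.391% rose and 1.26% fell at the same threshold, a limma p of under 0.05 after Benjamini-Hochberg adjustment. Before adjustment 18 members were higher and 1, B2m, lower at p under 0.05, where 8.28% of all tested genes were higher and 9.11% lower. For 24 of the 50 members (48.0%) the lowest isthmus sample lay above the highest chief sample, which held for 7.43% of the 18193 genes with a probe set and for 10.6% of the tested genes. Only B2m had its isthmus samples all below its chief samples, as had 10.5% of the tested genes. The members were chosen with earlier results of these data known, so these shares describe this list only.

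The difference was above 0 for 45 of the 47 tested members, and for 51.9% of all tested genes. It was at least 1 on the log2 scale for 33 members and for 9.80% of all tested genes. The median over the 47 members was 1.48, against 0.03 over all tested genes. With every value raised to at least its array median, these medians were 1.27 and -0.01. Since a member that is bright in the isthmus samples alone could pass the filter, the 19 members above the median on all 9 arrays were also read by themselves. Of these, 10 had isthmus samples wholly above the chief samples, as had 12.4% of the 7493 genes that pass this stricter filter, and their median difference was 0.92. Without chief replicate 3, all isthmus samples stood above the remaining chief samples for 31 of the 47 tested members, as they did for 17.1% of all tested genes. In that setting 2 members rose, as did 0.309% of all tested genes, and the median was 1.53.

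**Figure D2:**
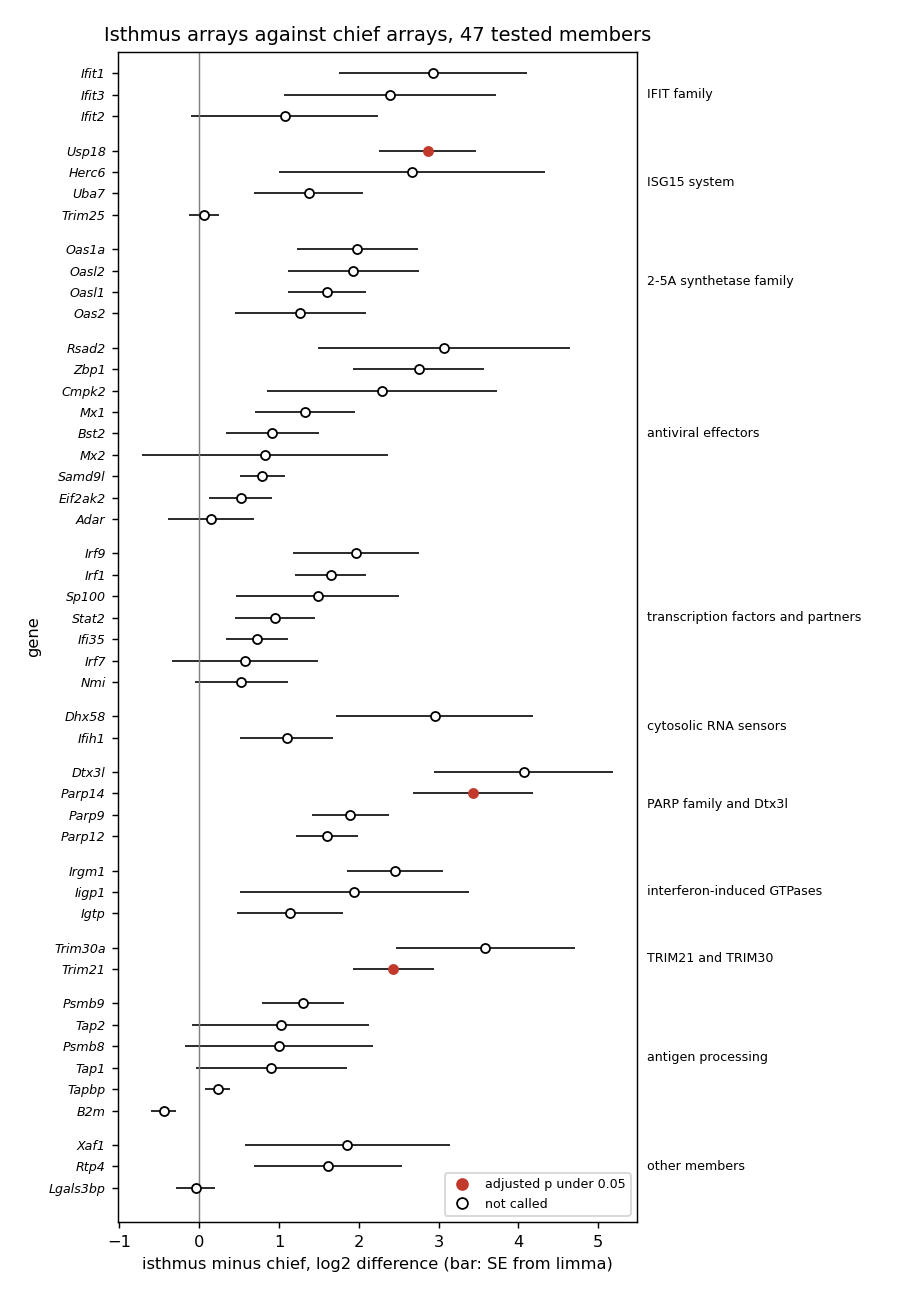
Isthmus minus chief difference in log2 signal for the 47 tested members, grouped by role, with bars of 1 standard error from limma on either side and filled points for an adjusted p under 0.05. All points but B2m and Lgals3bp lie to the right of 0, and Usp18, Parp14 and Trim21 are filled.

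Usp18, the protease that removes Isg15 from proteins and blocks signalling at the type I receptor, had the tightest isthmus values of the 3 called members. It was 9.47, 9.34 and 9.16 in the isthmus, 6.37, 6.44 and 6.67 in the parietal and 7.41, 6.27 and 5.70 in the chief samples. All isthmus samples thus stood above all others, and the parietal and chief samples overlapped. Against the chief samples it rose at least 5.46-fold (log2 difference 2.86, SE 0.61, adjusted p = 0.0396). The fold is a lower bound because 2 chief arrays read below their own array median, a stand-in for background to which such dim values are raised. No omission of a single array kept the call (adjusted p = 0.0555 to 0.14).

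Parp14, an ADP-ribosyltransferase, was 10.04, 11.72 and 11.06 in the isthmus, 4.23, 4.65 and 4.35 in the parietal and 5.98, 7.70 and 8.85 in the chief samples. The 3 groups did not overlap, with the chief samples between the others. It rose at least 9.83-fold against the chief samples (log2 difference 3.43, SE 0.75, adjusted p = 0.0428). Leaving out chief replicate 3 was the sole omission of an array that kept the call (0.0359), and leaving out any other ended it (0.0533 to 0.144). Its other probe set was also higher in the isthmus samples, by 1.86, and the mean of both was not called (0.0779).

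Trim21, a cytosolic antibody receptor and ubiquitin ligase, was 10.34, 9.64 and 10.18 in the isthmus, 8.10, 9.24 and 8.51 in the parietal and 8.01, 6.75 and 8.10 in the chief samples. It rose 5.40-fold against the chief samples (log2 difference 2.43, SE 0.51, adjusted p = 0.0375). Leaving out isthmus replicate 1, 2 or 3, chief replicate 1 or 2 or parietal replicate 3 ended the call (0.0581 to 0.139). The second probe set of the gene was higher by 1.82, and the mean of both was not called (0.0971).

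**Figure D3:**
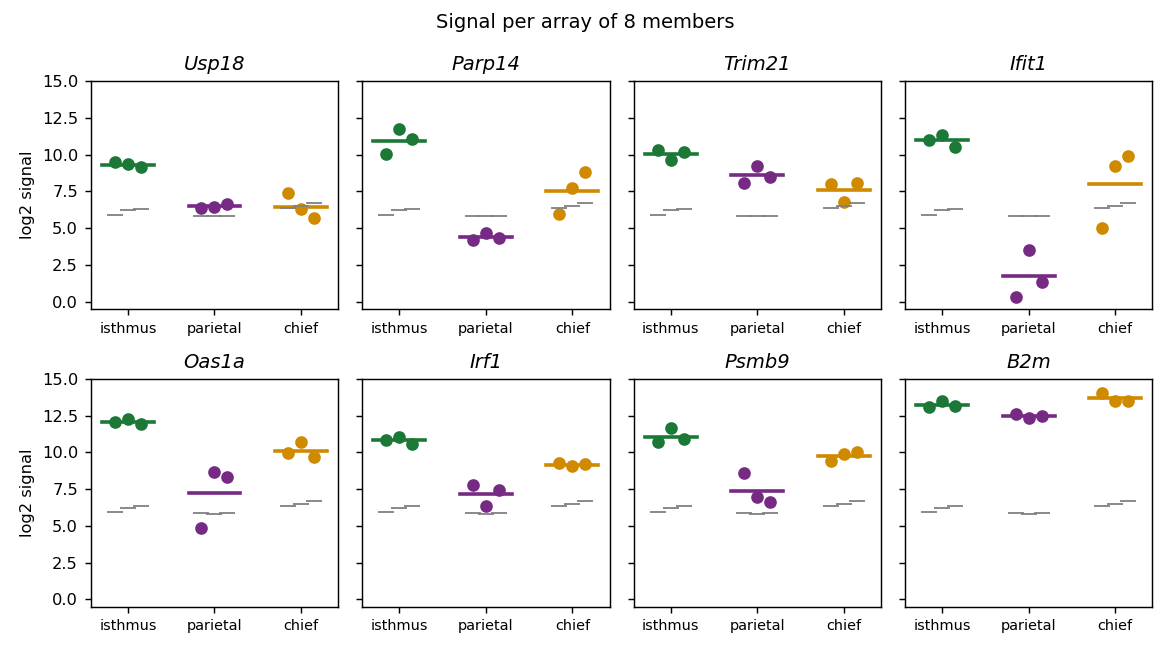
Log2 signal of 8 members on each array (points) with group means (horizontal lines), for isthmus, parietal and chief samples; short grey lines mark each array's own median. Usp18, Parp14 and Trim21 are the members that rose against the chief samples, Ifit1, Oas1a, Irf1 and Psmb9 have isthmus samples above all chief samples without a call, and B2m is highest in the chief samples.

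The remaining members are given by role, each with its values in all 9 samples where it was called in any comparison. In the IFIT family, whose proteins bind viral RNA that lacks the host's cap, Ifit1 was 11.01, 11.32 and 10.55 in the isthmus, 0.34, 3.50 and 1.34 in the parietal and 4.99, 9.22 and 9.88 in the chief samples. Its isthmus samples stood above all chief samples, which spread over almost 5 log2 units, and the difference of 2.93 was not called (SE 1.18, adjusted p = 0.228). Ifit2 was 6.30, 6.79 and 6.59 in the isthmus, 3.48, 1.19 and 3.47 in the parietal and 3.80, 6.46 and 6.20 in the chief samples. Only its isthmus values were above the array median, so Ifit2 passed the filter through these alone. Ifit3 ranged from 7.03 to 9.63 in the isthmus, 2.37 to 6.41 in the parietal and 3.96 to 8.82 in the chief samples. For both, the isthmus and chief samples overlapped.

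Beside Usp18, the Isg15 conjugation system was represented by its activating enzyme Uba7, its ligase Herc6 and Trim25, a ligase that also acts on the RNA sensor RIG-I. Uba7 was 9.48, 9.40 and 8.19 in the isthmus, 4.73, 6.08 and 6.44 in the parietal and 7.04, 7.55 and 8.36 in the chief samples. Herc6 ranged from 6.36 to 9.09 in the isthmus, 1.76 to 7.42 in the parietal and 2.69 to 8.39 in the chief samples, so that all groups overlapped. Trim25 was close to level between isthmus and chief samples and lower in every parietal sample, at 13, 13.31 and 13.38 in the isthmus, 12.64, 12.63 and 12.11 in the parietal and 13.51, 12.94 and 13.05 in the chief samples (isthmus minus chief 0.06, adjusted p = 0.897).

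The oligoadenylate synthetase family includes the enzymes that make the second messenger that activates RNase L. All 4 genes listed from this family had isthmus samples above every chief sample. Oas1a was 12.06, 12.26 and 11.95 in the isthmus, 4.87, 8.64 and 8.29 in the parietal and 9.93, 10.73 and 9.67 in the chief samples. Oas2 was 7.88, 9.39 and 8.32 in the isthmus, 2.11, 3.87 and 2.41 in the parietal and 7.26, 7.37 and 7.15 in the chief samples. The related Oasl1, known in mouse for restraining translation of Irf7, was 10.86, 10.89 and 11.23 in the isthmus, 6.05, 6.44 and 6.39 in the parietal and 10.28, 9.48 and 8.41 in the chief samples. Oasl2 was 11.16, 11.84 and 11.19 in the isthmus, 4.53, 1.87 and 5.66 in the parietal and 8.52, 10.02 and 9.85 in the chief samples. None of the 4 was called against the chief samples, with differences of 1.27 to 1.98 (adjusted p = 0.122 to 0.466).

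Among 9 antiviral effectors, Mx1, Zbp1 and Samd9l had isthmus samples above every chief sample and none was called. Zbp1, a sensor of Z-form nucleic acid that triggers cell death, was 7.73, 9.38 and 8.98 in the isthmus, 5.47, 3.73 and 4.16 in the parietal and 5.60, 5.66 and 6.58 in the chief samples (isthmus minus chief 2.75, adjusted p = 0.115). None of its parietal and chief values was above the array median, so it passed the filter through the isthmus samples alone. Samd9l, a restrictor of translation and growth, was 11.49, 11.54 and 11.23 in the isthmus, 9.04, 9.59 and 8.88 in the parietal and 10.66, 10.70 and 10.53 in the chief samples. Mx1, whose allele in C57BL/6 mice carries a deletion that leaves no working protein, was 8.36, 10.25 and 8.93 in the isthmus, 5.94, 6.64 and 7.26 in the parietal and 7.50, 7.81 and 8.26 in the chief samples. Its relative Mx2 ranged from 3.43 to 7.56 in the isthmus, 2.02 to 2.58 in the parietal and 3.37 to 8.20 in the chief samples.

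Rsad2 encodes viperin, a radical enzyme that makes a chain-terminating nucleotide, and Cmpk2 encodes its neighbouring kinase. Rsad2 was 10.57, 11.60 and 8.61 in the isthmus, 1.86, 1.03 and 5.80 in the parietal and 5.34, 5.16 and 11.08 in the chief samples, the highest chief value being that of replicate 3. Cmpk2 was 7.51, 9.04 and 6.81 in the isthmus, 5.01, 3.11 and 0.00 in the parietal and 6.19, 3.06 and 7.24 in the chief samples. Bst2, or tetherin, which holds budding virions at the membrane, was 8.18, 9.69 and 8.60 in the isthmus, 7.19, 6.55 and 6.42 in the parietal and 8.41, 7.62 and 7.69 in the chief samples. The isthmus and chief samples overlapped for these 3 genes and for both that follow. Eif2ak2, the RNA-activated kinase PKR, was 10.07, 10.92 and 10.84 in the isthmus, 8.72, 9.55 and 10 in the parietal and 10.21, 9.71 and 10.34 in the chief samples. Adar, the RNA editor whose product keeps self RNA from being sensed, was 10.98, 10.08 and 9.45 in the isthmus, 7.40, 6.91 and 8.38 in the parietal and 10.66, 10.15 and 9.25 in the chief samples.

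Of 7 transcription factors and their partners, Irf1, Irf9 and Stat2 had isthmus samples above every chief sample. Irf1 had a narrow spread, at 10.82, 11.05 and 10.55 in the isthmus, 7.79, 6.34 and 7.43 in the parietal and 9.25, 9.04 and 9.19 in the chief samples, and its isthmus minus chief difference of 1.65 was not called (adjusted p = 0.087). Irf9, the DNA-binding subunit of the complex described above, was 9.71, 9.93 and 10.12 in the isthmus, 6.40, 4.21 and 7.84 in the parietal and 8.29, 8.43 and 7.15 in the chief samples. Stat2, which joins it, was 9.18, 9.72 and 8.84 in the isthmus, 7.90, 7.23 and 7.07 in the parietal and 8.18, 8.78 and 7.93 in the chief samples. Irf7, the master regulator of type I interferon genes, overlapped in all groups, at 6.17 to 8.69 in the isthmus, 4.28 to 6.37 in the parietal and 6.29 to 8.35 in the chief samples.

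Nmi and Ifi35 encode proteins that bind each other, and Sp100 a component of nuclear bodies. Nmi was 8.17, 10.23 and 9.71 in the isthmus, 8.24, 7.69 and 6.84 in the parietal and 8.64, 8.90 and 8.99 in the chief samples. Ifi35 was 12.01, 12.46 and 11.69 in the isthmus, 11.10, 9.43 and 10.26 in the parietal and 11.34, 11.79 and 10.86 in the chief samples. Sp100 was 8.43, 9.29 and 6.15 in the isthmus, 4.21, 4.85 and 5.20 in the parietal and 8.28, 5.46 and 5.68 in the chief samples. For all 3 the isthmus and chief samples overlapped.

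Both cytosolic RNA sensors separated the isthmus from the chief samples without a call. Ifih1, or MDA5, which detects long double-stranded RNA, was 10.14, 10.67 and 10.17 in the isthmus, 6.02, 8.26 and 7.40 in the parietal and 9.72, 9.62 and 8.35 in the chief samples. Dhx58, or LGP2, which regulates MDA5 and RIG-I, was 8.24, 9.36 and 8.12 in the isthmus, 3.79, 6.92 and 1.03 in the parietal and 5.60, 5.62 and 5.65 in the chief samples, all chief values being below the array median. The other 2 probe sets of Dhx58 were lower in the isthmus than in the chief samples, by log2 differences of -1.22 and -1.59.

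All 4 members of the ADP-ribosyltransferase group had isthmus samples above every chief sample, and each had an unadjusted p under 0.05. Besides Parp14, they were Parp9, its partner the ubiquitin ligase Dtx3l, and Parp12, which restricts viral replication. Dtx3l was 10.19, 10.44 and 11.25 in the isthmus, 6.85, 8.61 and 6.31 in the parietal and 3.22, 8.35 and 8.10 in the chief samples. Its isthmus minus chief difference of 4.07 was the largest of the 47 tested members and was not called, with 1 chief sample far below the others (SE 1.12, adjusted p = 0.0912). Parp9 was 10.23, 11.13 and 10.31 in the isthmus, 8.27, 8.36 and 8.27 in the parietal and 9.47, 7.69 and 8.83 in the chief samples (adjusted p = 0.0693). Parp12 was 11.28, 11.13 and 10.70 in the isthmus, 9.69, 8.84 and 9.86 in the parietal and 9.63, 8.82 and 9.86 in the chief samples, so that its parietal and chief values were nearly the same (isthmus minus chief 1.60, adjusted p = 0.0591).

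The interferon-induced GTPases defend cells against bacteria and parasites inside vacuoles and are known chiefly as targets of type II interferon. Irgm1, a regulator of the other GTPases in mouse, was 9.43, 9.74 and 8.94 in the isthmus, 4.93, 5.73 and 5.62 in the parietal and 6.86, 6.59 and 7.30 in the chief samples. Its 3 groups did not overlap, and the 5.48-fold difference from the chief samples was not called (adjusted p = 0.0616). Igtp, an effector GTPase, was 10.30, 10.94 and 8.96 in the isthmus, 6.76, 5.31 and 6.04 in the parietal and 8.55, 8.21 and 10.02 in the chief samples. Iigp1, another effector, ranged from 5.50 to 9.52 in the isthmus, 3.69 to 5.82 in the parietal and 3.71 to 9.03 in the chief samples. In both the highest chief value was that of replicate 3. The 3 members that were not tested are GTPases as well: Gbp2, Gbp3 and Ifi47 ranged from 0.44 to 9.50 in the isthmus, 0.00 to 3.72 in the parietal and 0.86 to 8.38 in the chief samples, and isthmus and chief samples overlapped for each.

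Trim30a, a mouse ubiquitin ligase that dampens inflammatory signalling, stood beside Trim21. It was 9.10, 9.41 and 8.79 in the isthmus, 0.19, 3.21 and 0.06 in the parietal and 6.38, 4.44 and 5.73 in the chief samples, and its at least 5.94-fold difference between isthmus and chief samples was not called (adjusted p = 0.128). Only its isthmus values were above the array median, so it too passed the filter through these alone.

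The 6 antigen processing genes were mixed. Only Psmb9, a catalytic subunit of the immunoproteasome, had isthmus samples above every chief sample, at 10.70, 11.62 and 10.90 in the isthmus, 8.62, 6.96 and 6.60 in the parietal and 9.42, 9.86 and 10.02 in the chief samples. B2m, the light chain of MHC class I, was 13.07, 13.48 and 13.15 in the isthmus, 12.62, 12.36 and 12.49 in the parietal and 14.02, 13.52 and 13.50 in the chief samples, and its isthmus minus chief difference of -0.45 was not called (SE 0.16, adjusted p = 0.176). Tapbp, the tapasin that holds MHC class I at the peptide transporter, ranged from 12.45 to 12.68 in the isthmus, 11.95 to 12.30 in the parietal and 12.14 to 12.45 in the chief samples. Of the transporter's subunits, Tap1 was 9.54, 8.22 and 8.54 in the isthmus, 4.24, 5.22 and 6.89 in the parietal and 9.17, 5.74 and 8.68 in the chief samples. Tap2 and the proteasome subunit Psmb8 were dim, at 5.91 to 7.55 in the isthmus, 3.00 to 7.21 in the parietal and 2.37 to 7.24 in the chief samples. The median isthmus minus chief difference of the 6 genes was 0.95, and 0.04 with values raised to at least the array median.

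Of the last 3 tested members, Xaf1, a promoter of apoptosis, was 9.85, 10.89 and 10.68 in the isthmus, 1.38, 4.62 and 8.55 in the parietal and 8.42, 9.41 and 8.02 in the chief samples. Rtp4, a chaperone of receptors, was 10.24, 10.72 and 9.90 in the isthmus, 2.82, 4.72 and 7.59 in the parietal and 9.04, 8.94 and 8.04 in the chief samples. Both separated isthmus from chief samples without a call. Lgals3bp, a secreted glycoprotein, did not: it was 11.66, 12.26 and 12.37 in the isthmus, 9.65, 9.90 and 10.17 in the parietal and 12.28, 12.18 and 11.96 in the chief samples (isthmus minus chief -0.04, adjusted p = 0.953).

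Besides the probe sets used, 24 members had 35 others that name the gene alone. In 28 of the 35 the isthmus minus chief difference had the sign of the probe set used, and in 7 the opposite sign: besides the pair for Dhx58, these were 1 of Rtp4 (-1.10), 1 of Xaf1 (-1.51) and 3 of Tap1 (-1.16 to -0.00). Among the 22 that were above the array median on at least 3 arrays, 20 had the same sign.

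Parietal samples were next set against the same chief samples. Interferon-stimulated genes were mostly lower in parietal cells: 18 of the 47 tested members fell and none rose, where 13.5% of all tested genes fell and 10.7% rose. With each array centred on the median of its tested genes, which was 9.14 to 9.38, that balance of all tested genes turned. Then 11.5% of them fell and 13.8% rose, while 16 members fell and none rose. This median is not the array median used elsewhere, which is taken over all probe sets. At an unadjusted limma p under 0.05, 25 members were lower and none higher, where 20.0% of all tested genes were lower and 16.2% higher. The highest parietal sample lay below the lowest chief sample for 27 of the 50 members, as it did for 17.3% of the genes with a probe set and 21.2% of the tested genes. Of the 19 members above the median on all 9 arrays, 13 were so separated, as were 18.3% of the genes that pass this filter. The median difference was -1.72, against -0.10 over all tested genes, and with values raised to the array median these were -1.24 and -0.17. Of the 47 differences, 41 were below 0. The other 6 were above 0, as were 45.9% of all tested differences, and 1 of them, that of Psmb8, reached 1 on the log2 scale, as did 13.9% of all.

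The members that fell came from every role group. All 4 genes of the oligoadenylate synthetase family fell: Oasl2 by 5.44 on the log2 scale (adjusted p = 0.000474), Oas2 by 4.46 (0.00181), Oasl1 by 3.10 (0.000678) and Oas1a by 2.84 (0.016). Ifit1 fell by 6.30, the largest change of the 47, which is at least 4.57-fold given its dim parietal values (adjusted p = 0.00199). Among antigen processing genes Psmb9 fell 5.18-fold (adjusted p = 0.00505) and B2m 2.28-fold (0.000205). Lgals3bp fell 4.70-fold with a narrow spread in both groups (adjusted p = 4.48e-05), and Rtp4 at least 4.79-fold (0.0132). Irf1 fell 3.93-fold (adjusted p = 0.0064), Adar 5.49-fold (0.00551), Samd9l 2.75-fold (0.00255), Igtp at least 6.62-fold (0.00725) and Parp14 at least 3.19-fold (0.00952).

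Of the other 4 that fell, 3 lost their call when single arrays were left out. Ifih1 (4.01-fold, adjusted p = 0.0253) was lost without chief replicate 1 (0.0807) or 2 (0.0798) or parietal replicate 1 (0.0885) or 3 (0.0517). Trim25 (1.63-fold, 0.0148) was lost without chief replicate 1 (0.0572) or parietal replicate 3 (0.066). It was also lost with arrays centred on the medians of their tested genes (0.0508) and with the mean of its probe sets (0.1). Oas1a, named above, was lost without chief replicate 2 (0.0594). Trim30a, which kept its call without any single array, fell by 4.36 on the log2 scale (adjusted p = 0.0133). No parietal or chief value of Trim30a was above the array median, so that no fold is given. Its call was lost with 16 or 64 added to the signal before taking log2, and with only the arrays of these groups. With values raised to the array median, the difference was -0.69 and not called (adjusted p = 0.227). Xaf1 fell at least 3.69-fold (adjusted p = 0.0489), with parietal replicate 3 inside the chief range, and was kept only without parietal replicate 3 when single arrays were left out (up to 0.152). Leaving out chief replicate 3 and parietal replicate 1 together left 16 calls, where 8.7% of all tested genes fell, those of Parp14 and Trim30a being among the lost. Usp18, Parp12 and Trim21 were above 0 by 0.03, 0.03 and 1 (adjusted p = 0.975, 0.969 and 0.179).

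Isthmus samples set against parietal samples gave the widest separation. Of the 47 tested members 38 rose, none fell and 9 did not pass the test, where 15.4% of all tested genes rose and 12.2% fell. With each array centred on the median of its tested genes, 12.3% of all tested genes rose and 16.3% fell, while 36 members rose and none fell. At an unadjusted limma p under 0.05, 44 members were higher and none lower, where 21.4% of all tested genes were higher and 17.3% lower. For 43 of the 50 members all isthmus samples stood above all parietal samples, which held for 17.1% of the genes with a probe set, and for 41 of the 47 tested members, against 24.0% of the tested genes. No member had isthmus samples wholly below parietal samples, as had 20.3% of the tested genes. The difference was above 0 for 46 of the 47, against 53.4% of all tested genes, and at least 1 on the log2 scale for 43, against 23.7%. Among the 19 members above the median on all 9 arrays, 18 were separated in this way, as were 22.6% of the genes that pass this filter. The median difference was 3.32, against 0.09 over all tested genes, and with values raised to the array median these were 2.52 and 0.13. This comparison shares its isthmus samples and its parietal samples with the other comparisons, so the 3 sets of values are not independent.

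**Figure D4:**
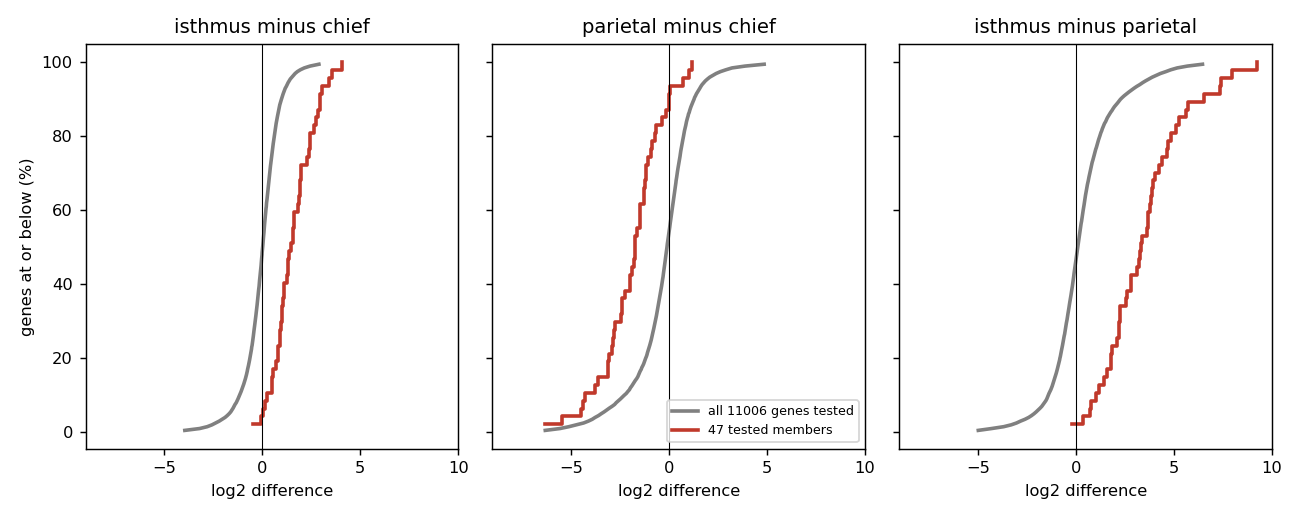
Share of genes (%) at or below each log2 difference, for the 47 tested members (red steps) and all 11006 tested genes (grey, drawn from the lowest 0.5% to the highest 0.5%), in the 3 comparisons. The members' medians are 1.48, -1.72 and 3.32, and those of all tested genes 0.03, -0.10 and 0.09.

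By role, 2 of 3 IFIT genes, 3 of 4 genes of the Isg15 system, all 4 of the oligoadenylate synthetase family, 8 of 9 antiviral effectors, 6 of 7 transcription factors and partners, both RNA sensors and all 4 of the ADP-ribosyltransferase group rose against the parietal samples. So did 2 of 3 tested GTPases, 1 of 2 Trim genes, 3 of 6 antigen processing genes and the remaining 3 members. Oasl2 rose at least 47.2-fold (log2 difference 7.38, adjusted p = 4.68e-05), Ifit1 at least 34.9-fold (9.23, 0.000126) and Parp14 at least 34.4-fold (6.53, 5.99e-05). Among members with every value above the array median, Oasl1 rose 26.0-fold (adjusted p = 3.28e-05), Psmb9 12.8-fold (0.000227) and Irf1 12.3-fold (9.49e-05). Usp18 rose 7.11-fold (adjusted p = 0.00417), close to its bound against the chief samples. B2m rose 1.67-fold (adjusted p = 0.00397) and Trim25 1.71-fold (0.00797). The 9 that did not pass were Ifit3, Herc6, Mx2, Irf7, Iigp1, Trim21, Psmb8, Tap2 and Tapbp. Trim21 missed the threshold (log2 difference 1.44, adjusted p = 0.0523), and Psmb8 alone had a difference below 0 (-0.19, adjusted p = 0.925).

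When single arrays were left out, 28 of these 38 calls were kept each time, and the other 10 were lost at least once. Bst2, Cmpk2 and Stat2 were lost without isthmus replicate 2 (adjusted p = 0.0864, 0.0805 and 0.0662) or parietal replicate 3 (0.0566, 0.0692 and 0.0545), and Dhx58 without isthmus replicate 2 (0.0548). Ifit2, Tap1, Eif2ak2, Nmi, Sp100 and Dtx3l were each lost without any of 3 or more of the isthmus or parietal arrays, and the highest adjusted p reached was 0.0845, 0.079, 0.157, 0.152, 0.137 and 0.127 in that order. With the mean of all probe sets of a gene, the isthmus minus parietal difference of Tap1 was 1.01 in place of 3.32 (adjusted p = 0.284) and that of Dhx58 was 1.83 in place of 4.66 (0.0831).

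The genes that lie upstream were read in the same fits, from lists of interferons, receptors, signal transducers and inducers. Of 13 interferon genes listed, 9 had a probe set and 1, Ifna1, was tested, with no call in any comparison. Ifnb1, Ifng and 4 further type I interferon genes were below the array median on all 9 arrays. Ifnb1 was 3.34, 1.81 and 4.01 in the isthmus, 4.21, 4.82 and 1.55 in the parietal and 1.44, 3.67 and 2.81 in the chief samples.

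None of the 6 receptor genes was called between isthmus and chief samples. Ifngr1, the ligand-binding chain for type II interferon, was 10.34, 10.38 and 11.05 in the isthmus, 7.40, 8.38 and 8.05 in the parietal and 10.02, 9.52 and 10.11 in the chief samples. It fell in parietal against chief samples (log2 difference -1.94, adjusted p = 0.00363) and rose in isthmus against parietal samples (2.65, 0.000381). Ifnlr1, the chain specific for type III interferon, also rose in isthmus against parietal samples (1.97, adjusted p = 0.0491). Ifnar2, a chain of the type I receptor, went the other way: at 7.52, 7.99 and 6.89 in the isthmus and 9.25, 9.79 and 9.79 in the parietal samples, it fell (-2.14, adjusted p = 0.0201). Ifnar1 was not called in any comparison.

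Among 9 tested signal transducers only Jak2, the kinase of the type II receptor, rose in isthmus against chief samples. It was 11.35, 11.70 and 11.26 in the isthmus, 10.19, 9.84 and 10 in the parietal and 9.82, 9.53 and 9.92 in the chief samples, a 3.20-fold difference from the chief samples (log2 difference 1.68, SE 0.28, adjusted p = 0.0133). The call was lost with the mean of the gene's 2 probe sets (adjusted p = 0.273), and without chief replicate 1 (0.0584), isthmus replicate 1 (0.0566) or isthmus replicate 2 (0.0523). In isthmus against parietal samples Jak2 (1.43, adjusted p = 0.00207) and Socs3, an inhibitor of cytokine receptors (1.69, 0.0153), rose.

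Of 10 tested genes that lead to interferon production, Tlr3, an endosomal receptor of double-stranded RNA, rose in isthmus against chief samples. It was 11.47, 11.47 and 12.13 in the isthmus, 10.18, 10.37 and 11.32 in the parietal and 9.04, 10.13 and 8.82 in the chief samples, a 5.13-fold difference (log2 difference 2.36, SE 0.40, adjusted p = 0.0153) that was not called without chief replicate 1 (0.0843) or isthmus replicate 1 (0.0586). In parietal against chief samples Tlr3 (1.29, adjusted p = 0.0337) and Mavs, the adaptor of the RNA sensors (1.42, 0.0286), rose, whereas Ddx58, which encodes RIG-I (-2.89, 0.00386), and Tlr4, the endotoxin receptor (-4.43, 0.00297), fell. That call of Tlr3 was lost without chief replicate 1 or 3 or parietal replicate 2 or 3 (0.0526 to 0.15).

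**Figure D5:**
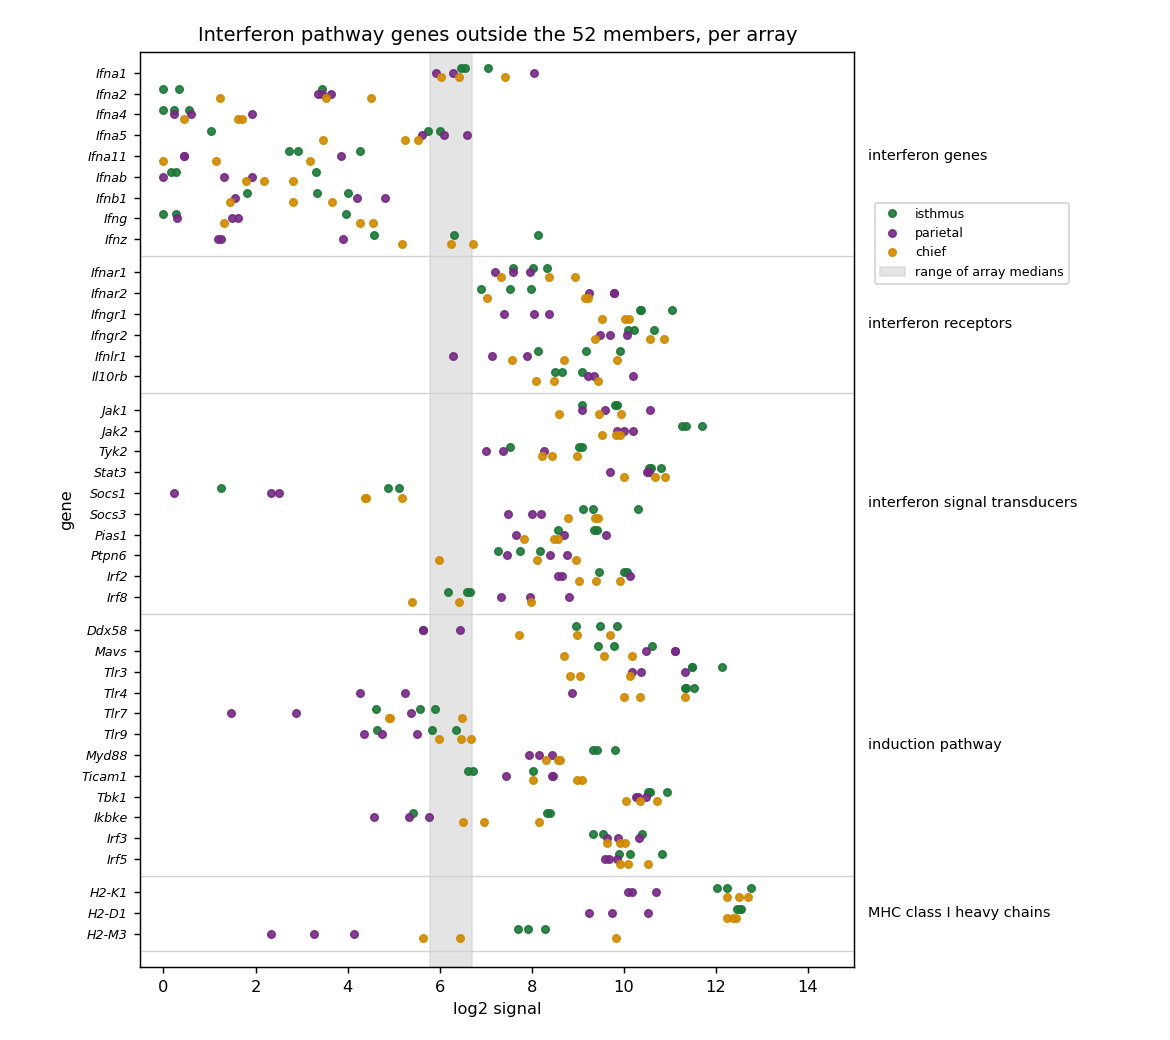
Log2 signal per array of interferon genes, receptors, signal transducers, genes of the induction pathway and MHC class I heavy chains, which are not among the 52 members; points are isthmus, parietal and chief samples, 3 each, and the grey band spans the medians of the 9 arrays. Most interferon genes lie below the band, the Jak2 and Tlr3 points of the isthmus samples lie above those of the chief samples, and the heavy chains are lowest in the parietal samples.

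A further list of interferon-stimulated genes outside the 52 had 39 genes with a probe set and 24 tested. Between isthmus and chief samples none of them rose, where 0.391% of all tested genes rose, and 1 fell, where 1.26% did. At an unadjusted limma p under 0.05, 5 were higher (20.8%, against 8.28% of all tested genes) and 2 lower (8.33%, against 9.11%). Isthmus samples stood above all chief samples for 3 of the 24 (12.5%), against 10.6% of all tested genes. The median difference was 1.04, against 0.03 over all tested genes. The gene that fell was Ly6e, which encodes a membrane protein that hinders coronavirus fusion, at 12.58, 13.10 and 13.13 in the isthmus, 12.08, 11.17 and 11.14 in the parietal and 14.64, 14.15 and 14.11 in the chief samples (log2 difference -1.36, adjusted p = 0.0204). That call was lost without chief replicate 1 (0.106) or isthmus replicate 1 (0.0909), with quantile normalization (0.0522) and with the mean of the gene's probe sets (0.205). In parietal against chief samples 7 of the 24 fell (29.2%, against 13.5% of all tested genes), among them Ifitm3 (-4.72, adjusted p = 3.72e-06) and Ifitm2 (-4.18, 9.41e-05), which block viral entry, and Helz2 (-6.67, 0.000237), a nuclear coactivator. Against this trend Ifi27 (2.98, adjusted p = 0.000347) and Ifi27l2a (4.40, 0.0141), small membrane proteins, rose in parietal against chief samples. That is 8.33% of the 24, where 10.7% of all tested genes rose. Ifi27 was 9.31, 10.65 and 9.27 in the isthmus, 12.67, 13.09 and 13.21 in the parietal and 10.82, 9.98 and 9.23 in the chief samples. In isthmus against parietal samples 11 of the 24 rose (45.8%, against 15.4% of all tested genes), and Ifi27 and Ifi27l2a fell (8.33%, against 12.2%).

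MHC class I heavy chains, which pair with B2m, were also lowest in the parietal samples. H2-K1 was 12.23, 12.77 and 12.02 in the isthmus, 10.17, 10.08 and 10.69 in the parietal and 12.50, 12.24 and 12.70 in the chief samples. H2-D1 was 12.54, 12.45 and 12.53 in the isthmus, 10.52, 9.24 and 9.75 in the parietal and 12.25, 12.38 and 12.44 in the chief samples. These and H2-M3 fell in parietal against chief samples (log2 differences of -2.17, -2.52 and -4.06, adjusted p = 5.58e-05, 4.4e-05 and 0.0151). None of the 3 was called between isthmus and chief samples (-0.14, 0.15 and 0.67, adjusted p = 0.818, 0.825 and 0.798). Heavy chain genes resemble each other in sequence, so their probe sets may read more than 1 of them.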

How the data were processed

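Each of the 9 samples was read on 1 Affymetrix mouse array and grouped by its title. The table holds log2 signals that the authors deposited, 1 for every probe set and array, made with MAS5, per the submitters' processing notes; the sources used here give no MAS5 version and do not explain the floor at 0. The values were used unaltered. Names of probe sets come from the platform annotation, in which 34945 of 45037 name 1 gene. Coordinates are those of RefSeq on GRCm38.p6.

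limma 3.58.1 under R 4.3.3 (lmFit, contrasts.fit, eBayes with an intensity trend) was run as 1 fit of all 9 arrays with a mean per group and 6 residual degrees of freedom. All tests are two-sided, with Benjamini and Hochberg's adjustment over the 11006 tested genes in each comparison and a call at an adjusted p under 0.05. A fold is a bound ("at least") if any array of the dimmer group read below its own median, and such arrays were then set to the higher of their value and the array median. The fits were tested on simulated data. The number of arrays limits the precision.

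The members, the other gene lists and the tests were chosen with earlier results of these data known. Values in every sample are given for members called in any comparison and, by role, for the largest isthmus minus chief difference and the brightest probe set, and other members by ranges. Upstream genes are named where called, or as background. The genes for array checks and Ifnb1, Irf7 and Ifnar1 were chosen after their values were seen.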

Additional observations from a re-analysis of the deposited data

How the results depend on the processing

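Each count and median was recomputed under 21 alternatives, and counts of separated samples, added after the data were seen, under 18. No called member changed direction. Between isthmus and chief samples, 3 members rose as reported, and the count was 7 and 12 with 16 and 64 added to the signal before taking log2, 9 with values raised to the array median, 0 with no filter on dim probe sets, 1 with only the arrays of these groups, 1 without chief replicate 3 and parietal replicate 1 together, and 0 to 2 without single arrays. The 12 were Dhx58, Dtx3l, Irf1, Irgm1, Oasl2, Parp9, Parp12, Parp14, Trim21, Trim30a, Usp18 and Zbp1. Of all 11006 tested genes, 43 rose as reported, 63 and 87 with 16 and 64 added, and 71 with raised values. With no filter 13 of 18193 rose. With only these arrays 19 rose, without both arrays together 7, and without single arrays 0 to 46. The median difference, 1.48, was 1.14 with 64 added, 0.92 for members above the median on all arrays, and 1.21 to 1.77 without single arrays. Separated members numbered 10 under that stricter filter, which leaves 19 members, and 24 to 32 without single arrays. Of all tested genes, 929 of 7493 were so separated under this filter and 1172 to 1883 of 11006 without single arrays. Leaving out an array makes separation easier for any gene.

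Between parietal and chief samples, the 18 falls became 10 and the 27 separated members 13 under the stricter filter, and 16 to 19 and 27 to 33 without single arrays. Of all tested genes, 1491 fell and 2328 were so separated as reported, and 910 and 1370 of 7493 under the stricter filter. Without single arrays these numbers were 1130 to 1454 and 2328 to 3030. The median of -1.72 was -1.34 and -0.89 with 16 and 64 added, -1.24 with raised values, -1.20 with quantile normalization, -1.19 under the stricter filter and -1.94 to -1.49 without single arrays. Between isthmus and parietal samples, the 38 rises and the 41 separated members both became 18 under the stricter filter, and 29 to 41 and 41 to 43 without single arrays. Of all tested genes, 1691 rose and 2646 were so separated as reported, and 1089 and 1697 of 7493 under the stricter filter. Without single arrays these numbers were 1302 to 1780 and 2646 to 3164. The median of 3.32 was 2.84 and 2.13 with 16 and 64 added, 2.52 with raised values, 2.95 with quantile normalization, 2.10 under the stricter filter, 2.77 without chief replicate 3 and parietal replicate 1 together, and 2.77 to 3.69 without single arrays. The median of all tested genes in parietal minus chief, -0.10, was 0.04 with quantile normalization and 0.02 under the stricter filter. With arrays centred on the medians of their tested genes it was 0.05, and that in isthmus minus parietal, 0.09, was -0.12. Centring shifts all genes of a comparison by the same amount, so the members' medians relative to these stay at -1.62 and 3.22 by construction. With quantile normalization the relative median in parietal minus chief was -1.24. The filter changes which genes are tested; otherwise the cause of these shifts was not tested.

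Deviations from the group means correlated weakly between samples of different groups, at -0.04 to 0.07 with the same replicate number and -0.05 to 0.03 with different numbers. Chief and isthmus samples of the same number had the highest values, 0.04, 0.04 and 0.07. With so few arrays a group, these values cannot settle whether the numbers pair the samples. With the replicate number as a block, 1 member rose between isthmus and chief samples, 18 fell between parietal and chief samples and 38 rose between isthmus and parietal samples. Of the calls, 0 of 3, 12 of 18 and 26 of 38 were kept under every alternative in which the member was tested. A member that the stricter filter leaves out was not tested under it, and had 20 alternatives in place of 21. Signal near the array median limits what the dim members can show, since their log2 values spread more than those of bright ones.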
